A study of Homo sapiens with 6 samples.

Results

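The SWI/SNF remodeler subunits described here are 10 genes, taken as every row of the count table whose symbol is on a fixed list of 10 names out of 37887 listed symbols. They comprise 4 subunits found only in the PBAF form of the complex (PBRM1, ARID2, BRD7 and PHF10), 3 found only in the canonical BAF form (ARID1A, ARID1B and DPF2) and 3 shared by both (SMARCA2, SMARCA4 and SMARCB1). All 10 were listed once, and all 10 passed the filter on low counts. RNA-seq had been performed on BT-549 cells, an established human triple-negative breast cancer line, in 3 control and 3 IRF1shRNA samples. The control samples are titled as control shRNA and received 0.1% DMSO. The IRF1shRNA samples received 500 ng/ml doxycycline, and the design text describes 1 stable line with an inducible IRF1 shRNA for both groups, so the labels differ on what the controls carry. Doxycycline was given to the IRF1shRNA samples and to no control, so the drug and the loss of IRF1 cannot be told apart. IRF1, the silenced gene and which encodes an interferon (IFN)-induced activator of transcription, fell to 29.9% of control.

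SWI/SNF complexes use the energy of ATP to slide or evict nucleosomes and thereby open chromatin. Each complex is built around an ATPase, either SMARCA4 (BRG1) or SMARCA2 (BRM), with SMARCB1 and other scaffold proteins at its core. Canonical BAF adds ARID1A or ARID1B and acts mainly at enhancers, whereas PBAF adds ARID2, PBRM1, BRD7 and PHF10 and is found largely at promoters. The study reported that IRF1 is needed for PBRM1 expression, from qRT-PCR and immunoblots of BT-549 cells carrying IRF1 shRNAs. These 10 transcripts show how the subunits on either side of the PBAF and BAF divide responded in the same RNA-seq libraries. In GENCODE 29 (GRCh38) the PBAF-only genes are PBRM1 (chr3:52545352-52685917, minus strand), ARID2 (chr12:45729665-45908040, plus strand), BRD7 (chr16:50313487-50368934, minus strand) and PHF10 (chr6:169703905-169725566, minus strand). The BAF-only genes are ARID1A (chr1:26693236-26782110, plus strand), ARID1B (chr6:156776020-157210779, plus strand) and DPF2 (chr11:65333754-65353249, plus strand), and the shared genes are SMARCA2 (chr9:1980290-2193624, plus strand), SMARCA4 (chr19:10960825-11079426, plus strand) and SMARCB1 (chr22:23786931-23838008, plus strand). Counts were summed over each gene.

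The total count per sample ranged from 55143808 in IRF1shRNA replicate 2 to 160436234 in IRF1shRNA replicate 3. Levels are in CPM, counts scaled to a common library size after correction for composition by the trimmed mean of M values (TMM). Every member was covered by between 2278 and 61134 counts in each sample. Of the markers of the line, ESR1 was at 0 to 0.144 CPM and PGR at 0.108 to 0.325 CPM, whereas the mesenchymal marker VIM was at 593 to 945 CPM. ERBB2 was counted at 35 to 54.8 CPM, and both it (log2 fold change -0.48) and VIM (-0.56) fell. The epithelial genes EPCAM and CDH1 were at 0.0268 to 0.158 and at 0.532 to 0.802 CPM. The leukocyte gene PTPRC was at 0.298 to 0.757 CPM, CD3E was at 0 in 5 samples and the endothelial gene PECAM1 was at 0.0134 to 0.144 CPM.

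The promoter windows shown are of PBRM1, the gene the study asked about, and of ARID1A and SMARCA2, which fell most. Each window that held the motif searched for below is shown as well. RefSeq windows (GRCh38.p14) from 250 bases before to 50 bases after a transcript start were found for 9 of the 10 members, 15 windows in all, since a gene may have several starts. The windows were searched on both strands for the core of the IFN-stimulated response element (ISRE), GAAANNGAAA or its reverse complement TTTCNNTTTC, to which IRF1 and related factors bind. Capitals mark an ISRE match. PBRM1 lies on the minus strand of chromosome 3, with the window chr3:52685864-52686163 at its start and a further window at chr3:52685550-52685849, of which the first is shown. ARID1A lies on the plus strand (window chr1:26695765-26696064), as do SMARCA2 (chr9:2015097-2015396 at the start of the long transcripts and chr9:2157412-2157711 at an internal start) and SMARCB1 (chr22:23786716-23787015).
PBRM1: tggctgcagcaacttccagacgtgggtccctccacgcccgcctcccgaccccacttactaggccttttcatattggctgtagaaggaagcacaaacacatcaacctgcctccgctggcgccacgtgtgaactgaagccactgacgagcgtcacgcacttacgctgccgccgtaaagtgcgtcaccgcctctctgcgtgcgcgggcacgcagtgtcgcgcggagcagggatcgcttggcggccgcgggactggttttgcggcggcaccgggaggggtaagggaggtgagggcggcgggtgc
ARID1A: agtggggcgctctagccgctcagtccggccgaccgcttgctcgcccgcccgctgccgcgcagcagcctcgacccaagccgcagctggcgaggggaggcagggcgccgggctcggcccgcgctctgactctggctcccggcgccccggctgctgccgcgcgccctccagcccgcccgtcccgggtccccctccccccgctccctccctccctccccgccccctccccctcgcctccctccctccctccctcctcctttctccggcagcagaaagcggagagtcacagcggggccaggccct
SMARCA2, long transcripts: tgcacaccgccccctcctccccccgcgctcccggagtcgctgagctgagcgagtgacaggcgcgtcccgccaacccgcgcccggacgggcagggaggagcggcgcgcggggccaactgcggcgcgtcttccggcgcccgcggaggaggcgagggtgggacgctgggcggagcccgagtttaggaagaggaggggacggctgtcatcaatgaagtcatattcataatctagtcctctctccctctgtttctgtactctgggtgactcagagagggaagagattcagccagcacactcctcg
SMARCA2, internal start: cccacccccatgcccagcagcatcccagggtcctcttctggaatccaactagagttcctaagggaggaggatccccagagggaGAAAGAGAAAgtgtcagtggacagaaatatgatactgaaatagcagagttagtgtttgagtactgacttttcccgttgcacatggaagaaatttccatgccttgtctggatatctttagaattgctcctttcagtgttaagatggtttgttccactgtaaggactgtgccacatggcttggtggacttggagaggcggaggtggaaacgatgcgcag
SMARCB1: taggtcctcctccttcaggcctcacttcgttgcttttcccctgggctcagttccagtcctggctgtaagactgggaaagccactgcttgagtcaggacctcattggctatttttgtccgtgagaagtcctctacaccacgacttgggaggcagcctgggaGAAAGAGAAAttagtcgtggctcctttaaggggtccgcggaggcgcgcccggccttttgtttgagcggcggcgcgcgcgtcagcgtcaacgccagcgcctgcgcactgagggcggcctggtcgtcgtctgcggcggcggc
The ISRE letters were present in 2 of the 15 windows, those of SMARCB1 and of an internal SMARCA2 start, and in 3.57% of 35116 promoter windows overall. The windows of ARID1B and PHF10, like the further SMARCA2 windows not shown, held no match. Both matches were the same 10 bases, GAAAGAGAAA, which began 167 bases before the internal SMARCA2 start and 90 bases before the SMARCB1 start. Neither PBRM1 window held these letters. Sequence outside the windows and looser forms of the motif were not searched. By chromatin immunoprecipitation, the study reported IRF1 at a promoter-like PBRM1 region that it placed downstream of the transcript start. The counts per gene cannot separate the long SMARCA2 transcripts from those of the internal starts.

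Expression of the 10 members was then compared between the groups. With edgeR's quasi-likelihood test and Benjamini-Hochberg adjustment over 18851 genes, 4 members were lower in IRF1shRNA samples at an adjusted p under 0.05 (ARID1A, SMARCA2, ARID1B and PHF10) and 0 were higher. Of all genes tested 50.5% were called, 24.1% higher and 26.4% lower. Among the 4672 genes with a mean level within the range of the members, 44.5 to 370 CPM, 68.5% were called, 33.2% higher and 35.3% lower, so 40% of members called was not above the background. At an unadjusted p under 0.05 the same edgeR test gave 1 member higher and 5 lower, and DESeq2 gave 0 higher and 4 lower after adjustment. The changes were modest, from -0.31 to 0.11 on the log2 scale with a median of -0.07, and 46.6% of all genes tested changed at least as much as the most changed member. The median over all genes tested was -0.0024.

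**Figure D1:**
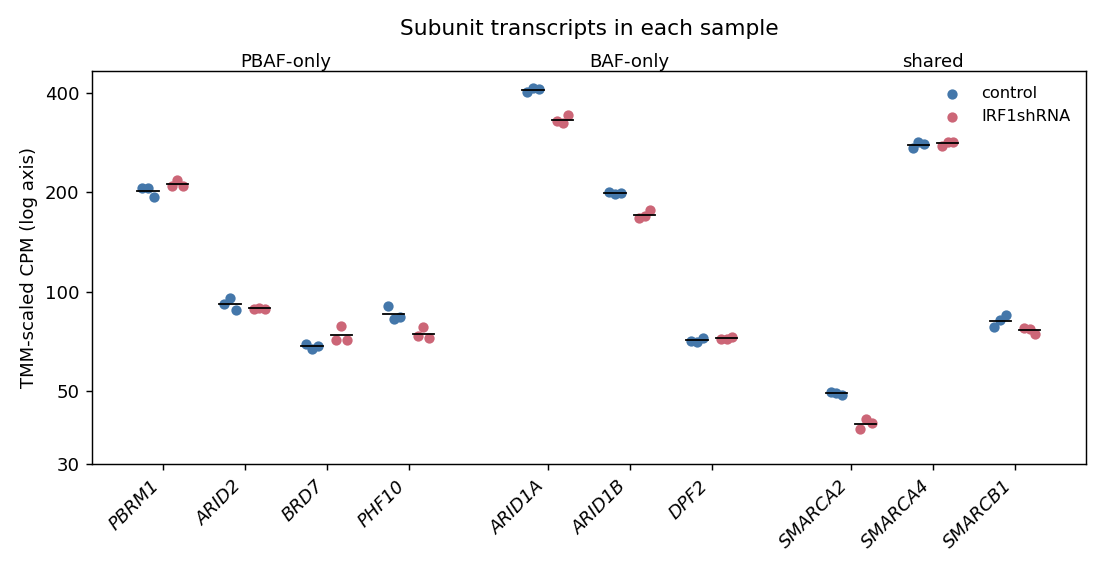
TMM-scaled CPM of the 10 subunit genes (log axis) in each of 3 control (blue) and 3 IRF1shRNA (red) samples, grouped by complex, with black bars at group means. The groups are separated most clearly for ARID1A (409 against 332 CPM), ARID1B (199 against 171 CPM) and SMARCA2 (49.2 against 39.8 CPM), whereas SMARCA4 and DPF2 overlap.

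Of the PBAF-only subunits, 1 of 4 was called, against 68.5% of genes at the members' levels. The median log2 fold change of the class was 0.01. PBRM1, the bromodomain protein that targets PBAF to acetylated chromatin, was at 207, 205 and 193 CPM in the controls (here and below in the order of replicates 1, 2 and 3) and at 208, 217 and 209 CPM with IRF1shRNA. Every IRF1shRNA sample was thus above every control, though the nearest values, 207 and 208 CPM, were almost equal. The PBRM1 log2 fold change was 0.07 ± 0.04 (SE), with a 95% interval from -0.02 to 0.16, and its adjusted p was 0.199. A fall of PBRM1 by more than 0.02 on the log2 scale lies outside that interval, which is of this fit alone. Across the alternative settings below the estimate ran from 0.042 to 0.12, a spread that the interval does not include. The interval concerns mRNA in these libraries. The study's report of lower PBRM1 after IRF1 silencing rests on qRT-PCR, which also measures mRNA, and on immunoblots. For these it compared cells with a control shRNA and cells with either of the IRF1 shRNAs. The libraries here compare DMSO with doxycycline, and their labels differ on what the controls carry. Why the libraries and the study's report differ was not tested. ARID2, the AT-rich DNA-binding subunit that defines PBAF, was at 92, 96 and 87.9 CPM in the controls and at 88.9, 89.4 and 88.6 CPM with IRF1shRNA. The ARID2 groups overlapped, and its log2 fold change was -0.05 (95% interval -0.14 to 0.04, adjusted p 0.391), or 0.003 with scaling by library size only.

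BRD7, the second bromodomain subunit of PBAF, was at 69.6, 67.3 and 68.4 CPM in the controls and at 71.5, 78.8 and 71.2 CPM with IRF1shRNA. The groups did not overlap, and IRF1shRNA replicate 2, the least deeply sequenced library, held the highest BRD7 value. Its log2 fold change came to 0.11 ± 0.05 (SE; adjusted p 0.0627), and without IRF1shRNA replicate 2 it was 0.065. In GENCODE 29 the exons of BRD7 share 42.4% of their length with genes on the opposite strand. One of these, ADCY7, was at 0.421 to 0.892 CPM, and the BRD7P2 pseudogene was at 0.96 to 1.73 CPM. Both were low beside BRD7, and both were picked with their values in view. No value was taken for the other opposite-strand gene, AC007493.2, and the part of the overlap in the BRD7 value was not tested. PHF10, a PHD-finger protein of the PBAF histone-reading module, fell from 90.4, 82.7 and 83.8 CPM in the controls to 73.6, 78 and 72.4 CPM with IRF1shRNA. All IRF1shRNA samples were below all controls, and the PHF10 log2 fold change came to -0.20 ± 0.05 (SE; adjusted p 0.00172). On the opposite strand C6orf120, which shares exon sequence with PHF10 and was chosen after its value was seen, rose by 1.25 on the log2 scale. The setting for strand in the counting is not given in the sources used here, and its part in the PHF10 value was not tested.

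Of the BAF-only subunits, 2 of 3 were called, both lower, where 68.5% of genes at the members' levels were called and 35.3% were lower. A count over 3 genes was not tested against these shares. The median log2 fold change of the class was -0.21. ARID1A, the large subunit that defines most canonical BAF complexes and is often mutated in cancer, was at 403, 413 and 410 CPM in the controls and at 330, 323 and 342 CPM with IRF1shRNA. It fell to 81.1% of control, the lowest control being well above the highest IRF1shRNA sample. Its log2 fold change came to -0.30 ± 0.04 (SE; adjusted p 8.48e-06). ARID1B, the paralog that takes the place of ARID1A in other BAF complexes, was at 200, 197 and 198 CPM in the controls and at 167, 169 and 177 CPM with IRF1shRNA. It fell to 86.2% of control (log2 fold change -0.21 ± 0.04, adjusted p 0.000276), so both mutually exclusive ARID1 subunits were lower after IRF1 silencing. DPF2, the PHD-finger subunit that binds acetylated histones for BAF, was at 71.1, 70.4 and 72.2 CPM in the controls and at 72, 72 and 72.8 CPM with IRF1shRNA. DPF2 overlapped between the groups, with a log2 fold change of 0.02 and a 95% interval from -0.06 to 0.10. After a correction for GC content and length it was 0.083 and called higher (adjusted p 0.0277 in edgeR). That correction also moved the median of all genes to 0.0717, close to the DPF2 value.

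Of the shared subunits, 1 of 3 was called, against 68.5% of genes at the members' levels. The median log2 fold change of the class was -0.09. SMARCA2, the BRM ATPase, was at 49.5, 49.4 and 48.8 CPM in the controls and at 38.4, 41 and 39.9 CPM with IRF1shRNA. It fell to 80.8% of control without overlap between the groups, and its log2 fold change of -0.31 ± 0.05 (SE) was the most negative of the 10 members, with an adjusted p of 2.31e-05. SMARCA4, the BRG1 ATPase, was at 273, 283 and 279 CPM in the controls and at 276, 284 and 285 CPM with IRF1shRNA. These values overlapped, and the SMARCA4 log2 fold change was 0.02 with a 95% interval from -0.07 to 0.10. After the GC and length correction it was 0.12 and called higher (adjusted p 0.0125, or 0.00789 with the replicate block, in edgeR). The median of all genes rose to 0.0717 under that correction (0.0709 with the block), and SMARCA4 was not tested against it. SMARCB1, the core subunit that contacts the nucleosome and is lost in rhabdoid tumors, was at 78, 82 and 84.9 CPM in the controls and at 77.8, 77.2 and 74.7 CPM with IRF1shRNA. The highest SMARCB1 value of the IRF1shRNA samples, 77.8 CPM, lay just under the lowest control, 78 CPM. Its log2 fold change was -0.09 (adjusted p 0.0907), or 0.003 after a GC and length correction, and without control replicate 1 it was -0.13 (adjusted p 0.035 in the same edgeR test). Over all 10 members the groups did not overlap for 7, of which 2 were higher and 5 lower, where 56.8% of all genes tested did not overlap, 27.3% higher and 29.5% lower.

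**Figure D2:**
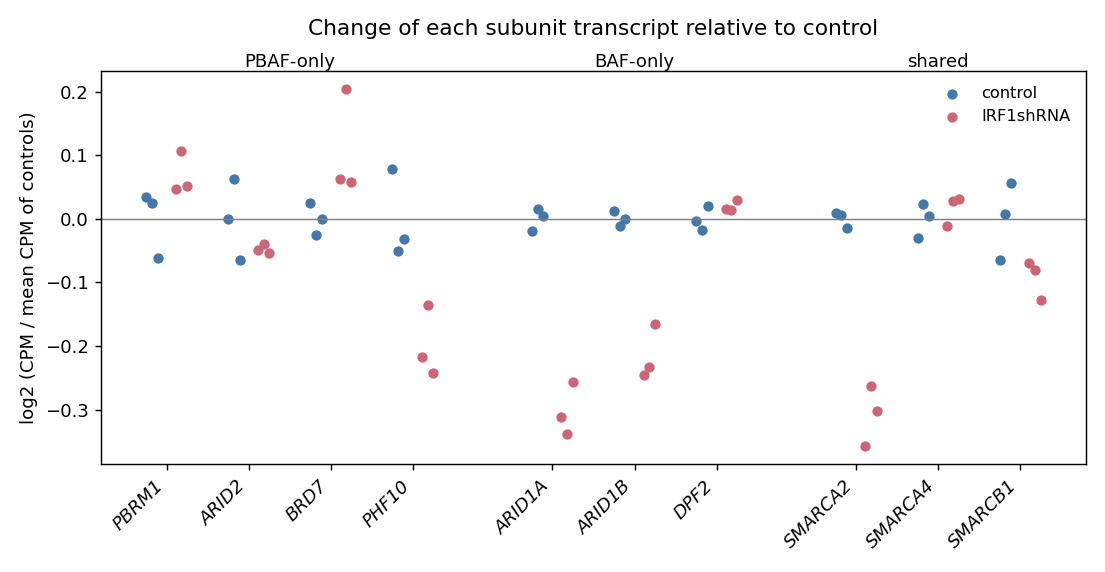
The log2 ratio of each sample's CPM to the control mean, for the 10 subunits in 3 control (blue) and 3 IRF1shRNA (red) samples. Within each class at least 1 subunit lies below its controls (PHF10, ARID1A, ARID1B, SMARCA2 and, narrowly, SMARCB1) and at least 1 overlaps them (ARID2, DPF2, SMARCA4).

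The members whose groups did not overlap were 2 higher (PBRM1 and BRD7) and 1 lower in the PBAF-only class, and 0 higher and 2 lower in both the BAF-only and the shared class. Each class held at least 1 member that fell and at least 1 whose groups overlapped, and the class medians, 0.01 for PBAF-only, -0.21 for BAF-only and -0.09 for shared subunits, rest on 3 or 4 genes each and were not tested against each other. Within paralog pairs, ARID1A and ARID1B moved together, whereas of the ATPases SMARCA2 fell and SMARCA4 overlapped. The difference between SMARCA2 and SMARCA4 was therefore taken within each library, where it does not depend on how libraries are scaled.

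Counts of 1 subunit were divided by those of another in the same sample for 6 pairs. SMARCA2 counts were 0.182, 0.175 and 0.174 of SMARCA4 counts in control and 0.139, 0.145 and 0.14 in IRF1shRNA samples, a 0.799-fold change. PBRM1 counts were 0.512, 0.497 and 0.472 of ARID1A counts in control and 0.632, 0.672 and 0.612 in IRF1shRNA samples. In every IRF1shRNA sample PBRM1, of PBAF, was thus higher relative to ARID1A, of BAF, than in any control, by 1.29-fold on average. The ARID2/ARID1A ratio, between the AT-rich subunits that define PBAF and BAF, went from 0.225 ± 0.00938 to 0.268 ± 0.00883 (SD, n = 3 each), or 1.19-fold. The PHF10/DPF2 ratio, between the PHD-finger subunits of either complex, moved the other way, from 1.2 ± 0.0604 to 1.03 ± 0.0455, or 0.86-fold. Smaller shifts were seen for ARID1B/ARID1A (0.486 ± 0.00954 to 0.516 ± 0.00738) and for PBRM1/ARID2 (2.2 ± 0.0541 to 2.38 ± 0.0449). The groups overlapped for none of the 6 pairs, but the pairs reuse genes (ARID1A is in 3 of them) and restate the changes of single members given above. Of single genes tested, 56.8% did not overlap either, and no such share was computed for ratios. These ratios are descriptions, and no test was made on them.

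**Figure D3:**
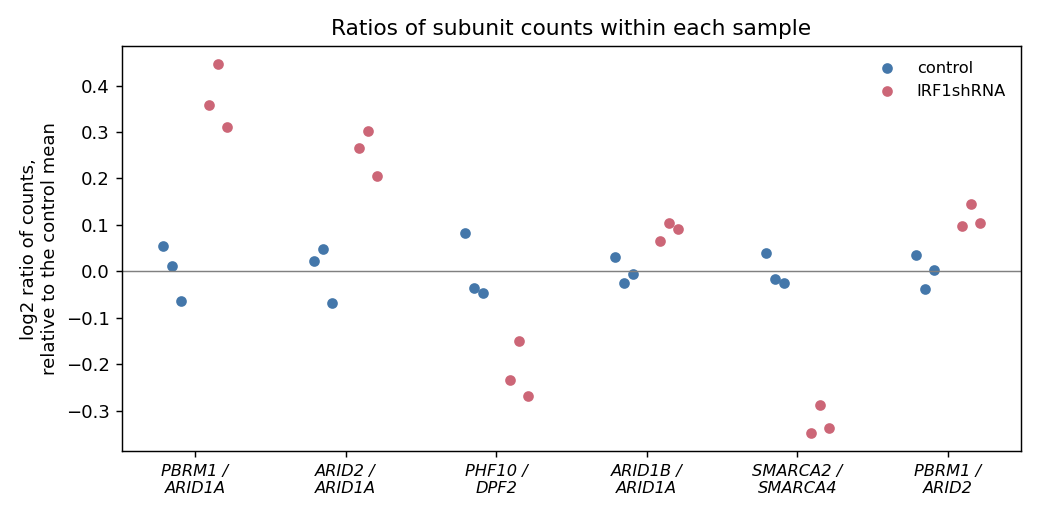
Ratios of counts between 2 subunits within each sample, on a log2 scale relative to the control mean, for 6 pairs in 3 control (blue) and 3 IRF1shRNA (red) samples. PBRM1/ARID1A and ARID2/ARID1A lie above all controls in every IRF1shRNA sample, and PHF10/DPF2 and SMARCA2/SMARCA4 lie below them.

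Levels were compared between members only per kilobase, using the longest APPRIS principal transcript of GENCODE 29. In control samples PHF10 (49.8 ± 2.41), SMARCA4 (48.1 ± 0.918) and ARID1A (47.6 ± 0.565) had the highest CPM per kilobase, and the neighbours among these 3 overlapped. PBRM1 (39.8 ± 1.43), DPF2 (25.5 ± 0.325), ARID1B (24.9 ± 0.193), SMARCB1 (15.7 ± 0.659), BRD7 (12.7 ± 0.222), ARID2 (10.6 ± 0.468) and SMARCA2 (8.39 ± 0.0736) followed, and these neighbours did not overlap. The order depends on the length used. Per kilobase of all exons of a gene, ARID1A (25.7 ± 0.305) and PBRM1 (20.9 ± 0.754) came first and ARID1B (4.44 ± 0.0344) next to last, while SMARCA2 (2.65 ± 0.0232) was lowest by either length. Transcripts of the SMARCA4 ATPase were 5.73 ± 0.132 times as abundant per kilobase as those of SMARCA2 in control and 7.17 ± 0.146 times in IRF1shRNA samples (SD, n = 3 each), or 6.67 and 8.34 times by the length of all exons.

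The 4 lower calls held across the settings tried. ARID1A, ARID1B, SMARCA2 and PHF10 were called lower in each of 17 alternative settings, with ARID1A between -0.33 and -0.22 and PHF10 between -0.23 and -0.14 on the log2 scale. Some members without a call gained one. PBRM1 was called higher in 4 of the 17 settings and BRD7 in 6. Over all 17 settings, called or not, the adjusted p ran from 0.00562 to 0.456 for PBRM1 and from 0.0014 to 0.239 for BRD7 (edgeR and DESeq2). In the 4 settings that called PBRM1 the median of all genes lay between 0.0414 and 0.0717, and PBRM1 between 0.11 and 0.12. PBRM1 and ARID2 were called lower in none of these settings.

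**Figure D4:**
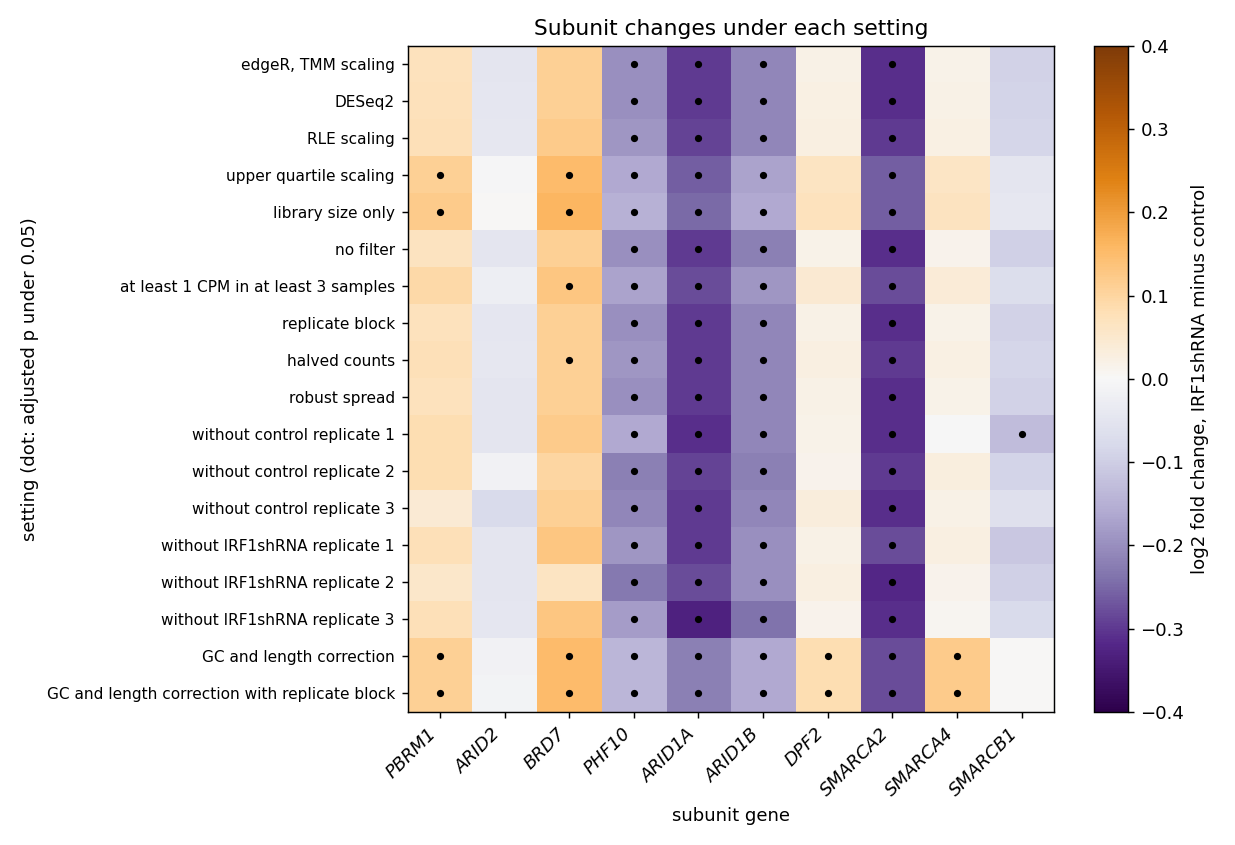
Log2 fold change (IRF1shRNA minus control, color) of the 10 subunits under the reported fit and 17 alternatives, with dots at an adjusted p under 0.05. ARID1A, ARID1B, SMARCA2 and PHF10 have a dot in every line, and PBRM1 and BRD7 gain one in 4 and 6 of the alternatives.

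The other subunits of the family were examined as a list of 21 genes. Of these, 19 were tested, 7 were called higher and 6 lower, or 68.4%, with a median log2 fold change of 0.05. ACTL6B and BCL11A, neuronal and lymphoid subunits, were too low to test, at no more than 0.0476 CPM. Over all 31 listed SWI/SNF genes, 29 were tested and 17 called, 58.6%, against 50.5% of all genes tested and 68.5% of those at 44.5 to 370 CPM. SMARCC1, a scaffold on which SWI/SNF complexes are assembled, rose most. It was at 250, 259 and 249 CPM in the controls and at 348, 376 and 354 CPM with IRF1shRNA, with a log2 fold change of 0.51 ± 0.04 (SE) and an adjusted p of 3.25e-08. Its paralog SMARCC2 fell slightly (-0.13, adjusted p 0.0138), a call that was lost without control replicate 2 (adjusted p 0.0542) or IRF1shRNA replicate 1 (0.0967) in the same edgeR test. It was also lost with upper quartile scaling (-0.09, adjusted p 0.0858), with library size only (-0.084, 0.101) and after the GC and length correction (-0.063, 0.141, or 0.159 with the replicate block). Those settings also raised the median of all genes, to between 0.0414 and 0.0717.

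Of the other core scaffold genes, SMARCD3 rose by 0.20 on the log2 scale, and that call was lost without control replicate 1 (adjusted p 0.1), control replicate 2 (0.0683) or IRF1shRNA replicate 3 (0.0922) in the edgeR test. SMARCE1, the HMG-box subunit, was counted at only 4.68 ± 0.583 CPM in the controls and 3.45 ± 0.544 CPM with IRF1shRNA (log2 fold change -0.42). In GENCODE 29, 19.8% of SMARCE1 exon sequence is shared with another gene of the same strand, so its count is uncertain. In the module of actin-like and BCL7 proteins that binds the ATPase, ACTL6A (0.18), BCL7A (0.32) and BCL7B (0.20) rose, whereas BCL7C fell (-0.34). The GC and length correction moved BCL7B to 0.31 and BCL7C to -0.20, both still called.

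Among the accessory subunits of BAF, 3 of the 5 tested were lower and 0 higher, where 26.4% of all genes tested were lower and 24.1% higher. SS18, a BAF subunit known from its fusion to SSX in synovial sarcoma, was at 136, 132 and 125 CPM in the controls and at 93.8, 92.6 and 95.9 CPM with IRF1shRNA. Its log2 fold change came to -0.48 ± 0.04 (SE; adjusted p 6.99e-08), and no member of the 10 changed as much. DPF1 (-0.39) and DPF3 (-0.44), the neuronal and muscle relatives of DPF2, fell as well while DPF2 itself overlapped. DPF1 went from 21 ± 1.34 to 16 ± 0.667 CPM and DPF3 from 23.6 ± 0.894 to 17.4 ± 0.546 CPM (SD, n = 3 each). BCL11B, the lowest of them at up to 0.196 CPM, had a log2 fold change of 0.03 and an unadjusted p of 0.967, and SS18L1 was at -0.03 with an unadjusted p of 0.518 in the edgeR test, which leaves 0 higher without adjustment. Of the subunits of the non-canonical form of BAF, ncBAF, BICRAL (0.24) and BRD9 (0.11) rose. The BRD9 call was lost without control replicate 1 (adjusted p 0.0657), control replicate 2 (0.145), IRF1shRNA replicate 2 (0.0881) or IRF1shRNA replicate 3 (0.117) in the edgeR test, and with no filter on low counts (0.0782), while the GC and length correction gave 0.18.

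**Figure D5:**
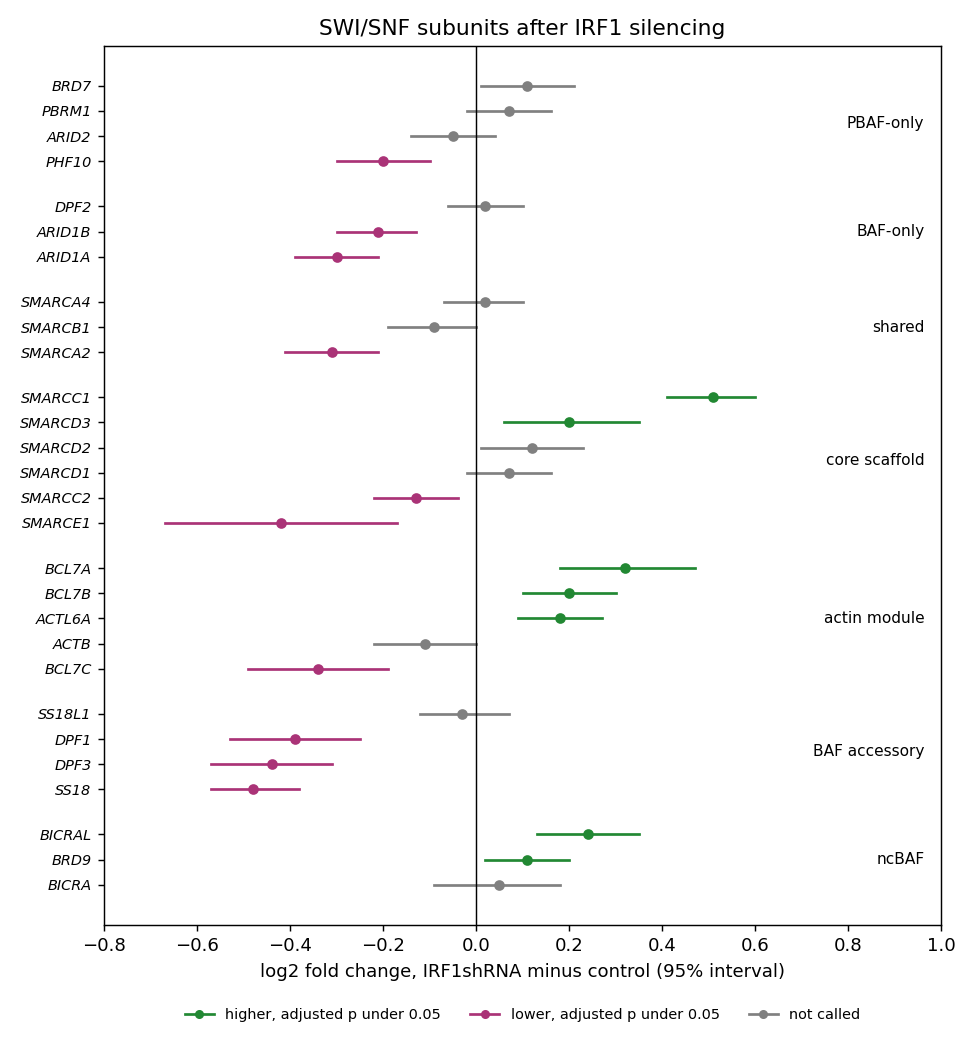
Log2 fold change (IRF1shRNA minus control) with 95% intervals for 28 of the 29 tested SWI/SNF genes by module, higher calls in green, lower calls in purple and genes not called in gray, with BCL11B left out because its interval runs from -1.35 to 1.4. SMARCC1 lies farthest to the right at 0.51 and SS18 farthest to the left at -0.48.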

How the data were processed

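RNA was sequenced from 6 BT-549 samples (TruSeq Stranded mRNA, per the labels). The deposited table holds raw counts, 1 line for each gene symbol, with no normalization. The submitters' processing notes name CASAVA 1.8.2, STAR 2.7.9a, featureCounts, DESeq2 1.24.0 and GRCh38.p7, with no role given; the annotation and strand setting are not given in the sources used here. Between 72.1% and 75.2% of counts from 2 to 11 per sample were even, so mates of a pair appear to have been counted separately, and halved counts were tried. Of 37887 symbols, 10041 had no count in any sample.

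From the counts, edgeR 4.0.16 (R 4.3.3) was run with group as the single factor, TMM scaling, filterByExpr (minimum count 10) and adjustment over 18851 genes. The standard error was the log2 fold change divided by the square root of F. Intervals are 95% and include replicate spread. The same function was tested on simulated data. Alternatives were DESeq2 1.42.0, other scalings and filters, leaving out each replicate, a replicate block, halved counts and robust spread; a GC and length correction (GENCODE 29, known for 98.6% of genes) was added after seeing the data, alone and with the block. The members and lists were chosen with earlier results of these data known. Genes named were the 10 members, IRF1, each other SWI/SNF subunit with an adjusted p under 0.05 and the 3 other remodeler ATPases with the smallest adjusted p; others are markers of cell types, list members given to account for them, or genes whose choice after seeing their values is stated.

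Replicates came from triplicate cultures, per the labels, and differed beyond sampling noise (chi-square per degree of freedom of halved counts 5.75 to 14.2), though p-values measure only the spread between these samples. Gene models and lengths were taken from GENCODE 29 and promoter windows from RefSeq.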

Additional observations from a re-analysis of the deposited data

How the results depend on the processing

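Values were recomputed for the members, IRF1, the lists and the within-sample ratios. Of these, 425 held, 15 became stronger, 17 moved and 4 reversed, while for the remaining named genes 258 held and 14 lost their call. A gene held if it kept its direction and side of the threshold. A count held if it was equal or within 1.5 times, and a log2 ratio if it shifted by less than its pooled replicate SD. Upper quartile scaling called PBRM1 (0.11) and BRD7 (0.15) higher, as did library size only (0.12 and 0.16), so that 2 members, both PBAF-only, were higher. In these 2 settings the median of all genes was 0.0414 and 0.0488, and 54% and 55% of all calls were higher. A stricter filter, 1 CPM or more in 3 or more samples (0.13), and halved counts (0.11) called BRD7 alone, 1 member. The GC and length correction raised the median of all genes to 0.0717 and called PBRM1 (0.11), BRD7 (0.15), DPF2 (0.083) and SMARCA4 (0.12) higher, 4 members (2 PBAF-only, 1 BAF-only, 1 shared). With the replicate block added it gave the same 4 (0.11, 0.15, 0.082 and 0.12). Under these corrections 57.9% and 57.8% of all calls were higher (6024 against 4380 lower, and 5911 against 4318), against 47.8% in the reported fit (4548 against 4971). SMARCB1 turned from -0.09 to 0.003 under both corrections, and ARID2 from -0.05 to 0.003 with library size only. Across the fits that left out 1 replicate, SMARCA4 ran from -0.001 (without control replicate 1) to 0.03, and SMARCB1 from -0.13 to -0.061, which made 1 to 2 shared subunits lower. The cause was not tested.

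The replicate block changed no call among the members (PBRM1 0.07, ARID1A -0.30), with 0 members higher and 4 lower. Same-numbered samples correlated by 0.0137, 0.025 and -0.00724 in their deviations from group means, and 3 of 6 samples correlated best with their own number, so the numbers were not taken as pairs.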

Other observations

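ATPases of other remodeler families, 18 genes, were all tested, and 6 were called higher and 4 lower (55.6%, against 50.5% of all genes tested and 68.5% of those at 44.5 to 370 CPM), with a median log2 fold change of 0. CHD4 and SRCAP, not called, share 46.9% and 74.1% of their exon sequence with other genes of the same strand, so their counts are uncertain. CHD1L, also not called, was at only 0.897 CPM in the controls. The smallest adjusted p-values belonged to SMARCA1, CHD9 and CHD1. SMARCA1, an ISWI ATPase that spaces nucleosomes, was at 82.3, 80.9 and 83 CPM in control and at 119, 133 and 117 CPM in IRF1shRNA samples, a log2 fold change of 0.58 ± 0.05 (SE). CHD9 fell from 70.1, 69.4 and 66.9 CPM to 47.2, 50.1 and 48.7 CPM (-0.50), and CHD1, a remodeler that travels with elongating polymerase, fell from 229, 225 and 206 CPM to 156, 162 and 157 CPM (-0.48). Each of these 3 changed more than any of the 10 PBAF and BAF subunits.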
